A study of Saccharomyces cerevisiae with 21 samples.

Results

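The mitochondrial respiratory chain and the ATP synthase of the budding yeast Saccharomyces cerevisiae are described here through 39 nuclear genes that encode their subunits. The genes were taken by symbol from the probe annotation of the array, with the brightest probe set where a gene had several, and all 39 were found, among 5449 S. cerevisiae genes tested. Each was measured by 1 probe set. They comprise 4 genes of complex II, 3 NADH dehydrogenases, 9 genes of the bc1 complex, 2 cytochrome c genes, 9 genes of cytochrome c oxidase, 5 genes of the catalytic F1 part of the ATP synthase and 7 of its stalk and membrane part. The genes lie on 14 chromosomes.

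Total RNA was measured on 21 Affymetrix arrays, 3 for each of 7 groups, and a value is a log2 signal, so a difference of 1 is a doubling. In YPD, a rich medium with dextrose, the groups were heat stress with ISP1, heat stress alone, ISP1 alone, each for 45 min, and a control in normal YPD. In synthetic complete medium (SC), they were myristate with ISP1 with no time given, myristate for 45 min, and an SC control. ISP1 is myriocin, per the design text, an inhibitor of serine palmitoyltransferase at the start of sphingolipid synthesis. Myristate is a saturated fatty acid. In the group given myristate with ISP1, the descriptions of replicates 2 and 3 name ISP with another number than their titles do, and the groups follow the titles. The labels give no strain, temperature, dose or vehicle, and they leave unsaid whether replicates were grown apart. The p-values therefore measure only how these arrays vary, which may be technical.

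Electrons enter the yeast chain from NADH and succinate, reach coenzyme Q, and pass through the bc1 complex, cytochrome c and cytochrome c oxidase to oxygen. The proton gradient built on the way drives the ATP synthase. S. cerevisiae has no proton-pumping complex I and uses single-protein NADH dehydrogenases in its place. On glucose, yeast ferments, and many respiratory genes are held down by glucose repression. Several subunits have a pair of alternative forms whose genes are used at different oxygen or carbon supply. The catalytic core of the oxidase and part of the bc1 complex and the ATP synthase are encoded in mitochondrial DNA, and those genes are not analysed here.

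The subunit genes were bright on these arrays. Their median mean level was 12.72, against 10.29 over all genes tested, and the median member lay at percentile 91.08 of all genes by mean level. The lowest were NDE2, at percentile 20.7, and COX5B, at percentile 50.71. All 39 had means above the limit of 4.84 that was taken as background. The highest value of a member on any array was 13.99, against 15.07 for the brightest gene. The median of all genes lay between 10.21 and 10.33 on the arrays, and replicates correlated with r between 0.993 and 0.998. With 3 arrays in a group, their number sets the precision. In bulk cultures, fewer cells using a gene and less RNA per cell cannot be told apart.

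The levels of 38 of the 39 genes differed among the 7 groups (limma's moderated F test, adjusted p under 0.05). The share, 97.4%, was near that of all genes, 96.6%, and the subunit genes varied less than genes in general, with a median range between group means of 0.66, against 0.91 over all genes. ATP18, subunit i or j of the ATP synthase, did not pass (adjusted p = 0.0713). The widest ranges belonged to NDE2, at 4.08, CYC7, at 3.86, and COX5B, at 3.03, and the narrowest to ATP1, at 0.22. By level in the YPD control, NDE2, COX5B, CYC7, NDI1, SDH4, SDH1 and SDH2 held ranks 1 to 7 from the dimmest. ATP1 was the brightest, at rank 39. The 7 dimmest also held ranks 1 to 7 of the changes in heat, in ISP1 and in myristate, from the largest rise. They did not in the SC control against the YPD control, where NDI1 held rank 30. The changes in heat, in ISP1 and between the media controls subtract this same YPD control level, so a low reading lifts them. Those in myristate do not. Whether bright probe sets understate a change was not tested. In the YPD control 19 genes had their lowest group mean, in the SC control 10 and in heat with ISP1 8. Heat alone held the highest mean for 14 genes and ISP1 alone for 9. The YPD control held the highest mean of 0 genes. The matching shares of all genes were not counted, so these counts cannot be called particular to the subunit genes.

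Under heat, all 4 genes of complex II, all 9 of the bc1 complex, the NADH dehydrogenases NDI1 and NDE2, and the alternative forms CYC7 and COX5B rose, while the NADH dehydrogenase NDE1 and the main cytochrome c gene CYC1 fell. Of the 39 genes, 28 rose, 2 fell and 9 did not pass in heat against the YPD control (limma, adjusted p under 0.05). Of all genes tested, 80.6% were called in this comparison, 39.8% higher and 40.9% lower, so that the share of subunit genes called, 76.9%, was close to the background, while their calls were mostly in the upward direction. The median change of the 39 genes was 0.31, against -0.00 for all genes. The arrays of heat and control did not overlap for 32 of them (83.1% of all genes).

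ISP1 without heat also raised many of them. In ISP1 against the YPD control, 29 rose, 0 fell and 10 did not pass, and all 39 changes were above 0. The share of all genes with a change above 0 was not counted. Of all genes, 61.1% were called, 27.9% higher and 33.2% lower. The median change was 0.21, against -0.04 for all genes, and 22 genes had arrays that did not overlap (66.1% of all genes). Heat and ISP1 were set against the same 3 control arrays, so a control array that is low lifts both. The count of rises was 19 without ISP1 replicate 3 and 20 without YPD control replicate 1. By the median of the members, ISP1 replicate 3 was the highest of its group (12.84) and YPD control replicate 1 the lowest (12.43). ISP1 replicate 3 also had its group's highest 3′ minus 5′ difference of control probe sets for ACT1 (0.62), SRB4 (3.27) and RIP1 (0.59). For SPT15 it did not. This difference is a sign of RNA or labelling quality, and its part in the count was not tested.

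With heat already given, ISP1 did not raise most of these genes further. Set against heat alone, 3 rose, 10 fell and 26 did not pass, among 32.7% of all genes called, 16.5% higher and 16.3% lower. The median change was -0.10, against 0.01 for all genes. This count moved with the setting. It was 6 without heat replicate 2 or without replicate 3 of heat with ISP1, 8 without heat replicate 3 or without replicate 2 of heat with ISP1, 22 when arrays were weighted, and 8 (2 rises and 6 falls) with the replicate number as a block in a fit of only the arrays compared. The replicate numbers paired these arrays, as described under the processing.

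The difference between those effects was tested directly. The effect of ISP1 in heated cells was lower than its effect in unheated cells in 38 of the 39 genes, ATP1 being the exception (45.1% of all genes had a difference below 0). The difference passed the test in 29 genes, all with a lower effect in heat, among 40.9% of all genes called and 19.1% called lower. Its median was -0.38, against 0.04 for all genes.

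**Figure D1:**
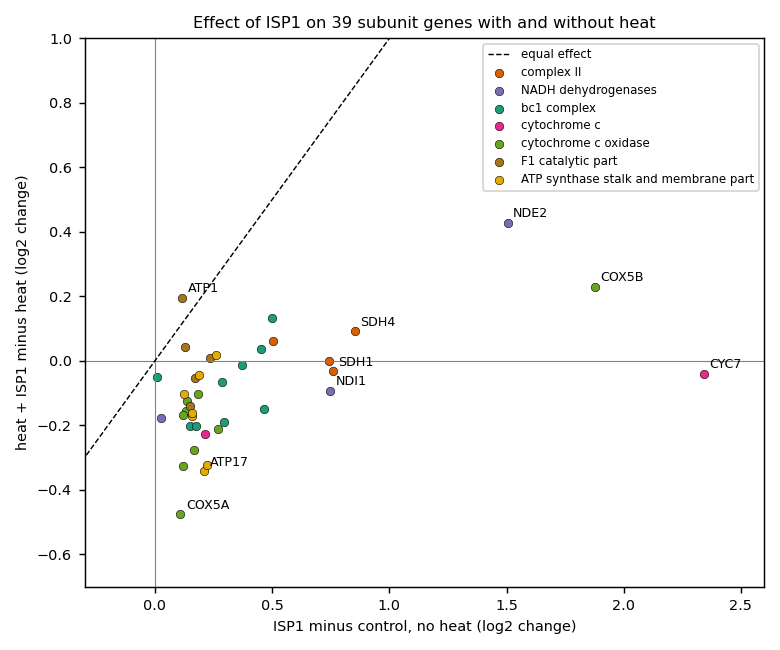
Each point is 1 of the 39 subunit genes, with the log2 change by ISP1 in unheated cells on the x axis and in heated cells on the y axis, coloured by complex; the dashed line marks equal effects. All genes except ATP1 lie below the line, and CYC7 lies at 2.34 on the x axis and -0.04 on the y axis.

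Myristate raised a smaller set in SC. In myristate against the SC control, 12 rose, 2 fell and 25 did not pass, among 52.3% of all genes called, 26.6% higher and 25.7% lower. The median change was 0.08, against -0.01 for all genes, and 25 genes had arrays that did not overlap (62.7% of all genes). The 12 genes that rose with myristate also rose in heat, where they made up 42.9% of the rises, and these comparisons share no array. The same 12 made up 41.4% of the rises with ISP1 in YPD. Among all genes 39.8% rose in heat and 27.9% in ISP1. How many of all genes rose both with myristate and in heat or ISP1 was not counted. These overlaps therefore cannot be called particular to the subunit genes.

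When ISP1 was added to myristate, no change of a subunit gene passed. In myristate with ISP1 against myristate, 0 of 39 genes were called by limma, and 1 gene of all 5449 was (0.0184%). At an unadjusted p under 0.05 there were 349 genes, 1 of them a subunit gene, NDI1, and the lowest adjusted p of a member was 0.674. The 95% confidence intervals of the 39 changes reached from -0.26 to 0.42, so a doubling lay outside them. The effect of ISP1 in the presence of myristate in SC was lower than its effect in YPD in 15 genes and higher in 0 (45.9% of all genes called, 25.8% higher and 20.1% lower). Myristate and medium differ together in that contrast and cannot be told apart. The treatment time may differ as well, since none is given for myristate with ISP1.

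The controls of the media differed as well. In the SC control against the YPD control, 18 genes rose, 5 fell and 16 did not pass, among 59.8% of all genes called, 18.9% higher and 40.9% lower. The median change was 0.10, whereas that of all genes was -0.13, so each change here is to be read against that shift. The median of the 39 genes was 0.15 without YPD control replicate 3 and 0.16 after each array was centred on its median gene. The arrays of 24 genes did not overlap (67.8% of all genes). The 3′ minus 5′ difference of control probe sets, a sign of RNA or labelling quality, differed between the media controls for RIP1, SRB4 and ACT1 and not clearly for SPT15. For RIP1 it was 0.16 ± 0.02 in the SC control and 0.50 ± 0.06 in the YPD control (SD, n = 3 arrays each), and for SRB4 it was 1.78 ± 0.12 in the SC control and 2.86 ± 0.02 in the YPD control (SD, n = 3 each). ACT1 gave 0.36 ± 0.01 in the SC control and 0.56 ± 0.04 in the YPD control (SD, n = 3 each). SPT15 went the other way with overlapping arrays, at 1.65 ± 0.10 in the SC control and 1.54 ± 0.17 in the YPD control (SD, n = 3 each). The part of this difference in the changes between media was not tested.

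**Figure D2:**
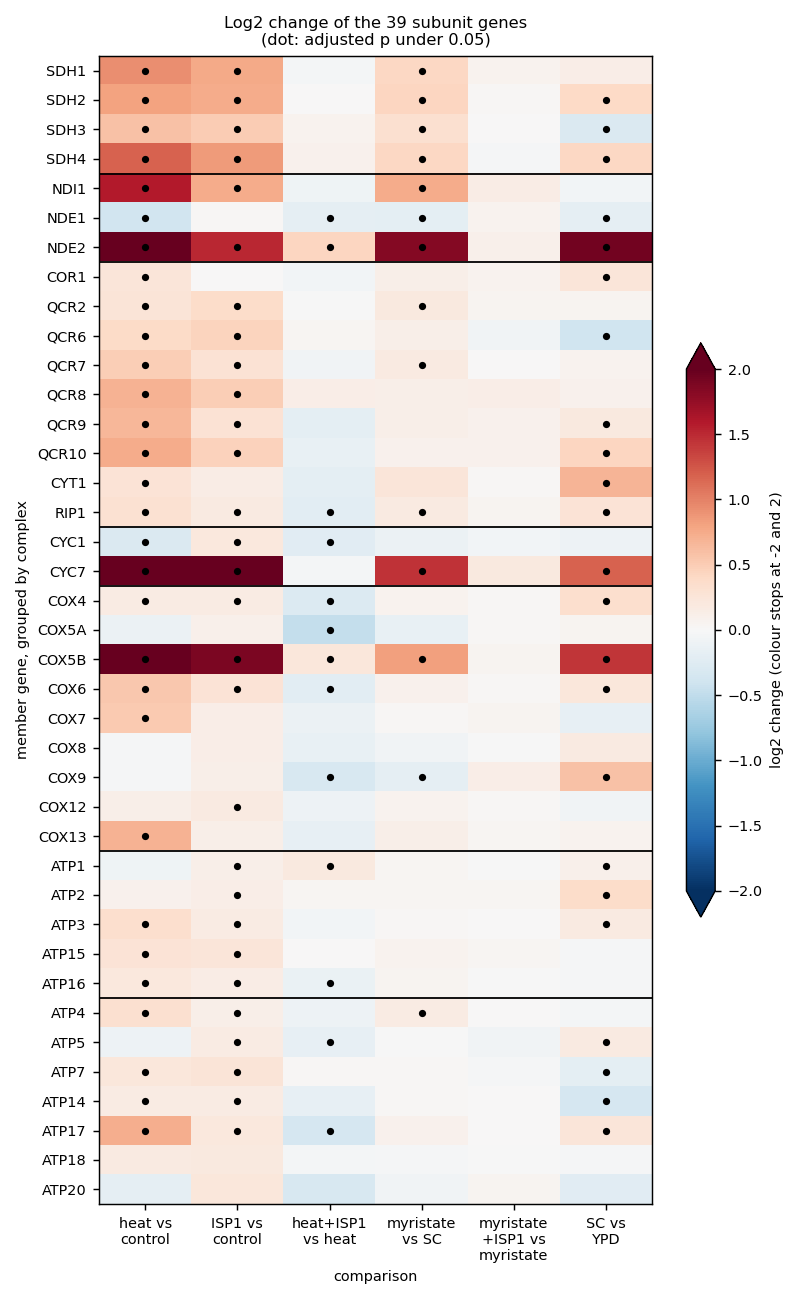
The log2 change of each of the 39 subunit genes (rows, grouped by complex) in 6 comparisons (columns), red for higher and blue for lower in the group named first in each label, with colours that stop at -2 and 2 and a dot where the adjusted p is under 0.05. The 4 complex II genes carry dots in heat, ISP1 and myristate, and the column of myristate with ISP1 against myristate carries 0 dots.

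Complex II, succinate dehydrogenase, passes electrons from succinate of the TCA cycle to coenzyme Q. All 4 of its genes rose in heat, in ISP1 and in myristate, with median changes of 0.87, 0.75 and 0.41. The shares of all genes that rose were 39.8% in heat, 27.9% in ISP1 and 26.6% in myristate. None of the 4 was called in heat with ISP1 against heat, where 32.7% of all genes were. SDH4 encodes a membrane anchor. It had levels of 12.54, 12.57 and 12.59 in heat with ISP1, 12.40, 12.49 and 12.55 in heat, 12.03, 12.22 and 12.21 in ISP1, and 11.27, 11.38 and 11.27 in the YPD control. The control arrays lay below every array of the other YPD groups. The change was 1.18 ± 0.06 (SE) in heat, a fold of 2.26 (adjusted p = 4.61e-12), and 0.85 ± 0.06 in ISP1 (adjusted p = 2.45e-09). In SC, SDH4 measured 12.13, 12.23 and 11.99 in myristate with ISP1, 12.10, 12.18 and 12.13 in myristate, and 11.75, 11.71 and 11.70 in the control. The treated SC arrays overlapped each other and lay above the control.

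SDH1, the flavoprotein that oxidises succinate, had levels of 12.33, 12.21 and 12.20 in heat with ISP1, 12.30, 12.23 and 12.31 in heat, 12.12, 12.06 and 12.12 in ISP1, and 11.21, 11.46 and 11.36 in the YPD control. The change was 0.94 ± 0.06 in heat and 0.76 ± 0.06 in ISP1, and 0.42 ± 0.06 in myristate. ISP1 added to heat gave -0.03 ± 0.06 (adjusted p = 0.733), and the difference between the ISP1 effects was -0.79 ± 0.09 (adjusted p = 2.03e-06). SDH2, the iron-sulfur subunit, changed by 0.81 ± 0.06 in heat, 0.74 ± 0.06 in ISP1 and 0.44 ± 0.06 in myristate. SDH3, the other membrane anchor, changed by 0.59 ± 0.05 in heat, 0.50 ± 0.05 in ISP1 and 0.32 ± 0.05 in myristate. The media controls split this complex. In SC against YPD, SDH4 rose by 0.42 ± 0.06 and SDH2 by 0.40 ± 0.06, SDH3 fell by 0.29 on the log2 scale, and SDH1 changed by 0.14 ± 0.06 (adjusted p = 0.0695).

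**Figure D3:**
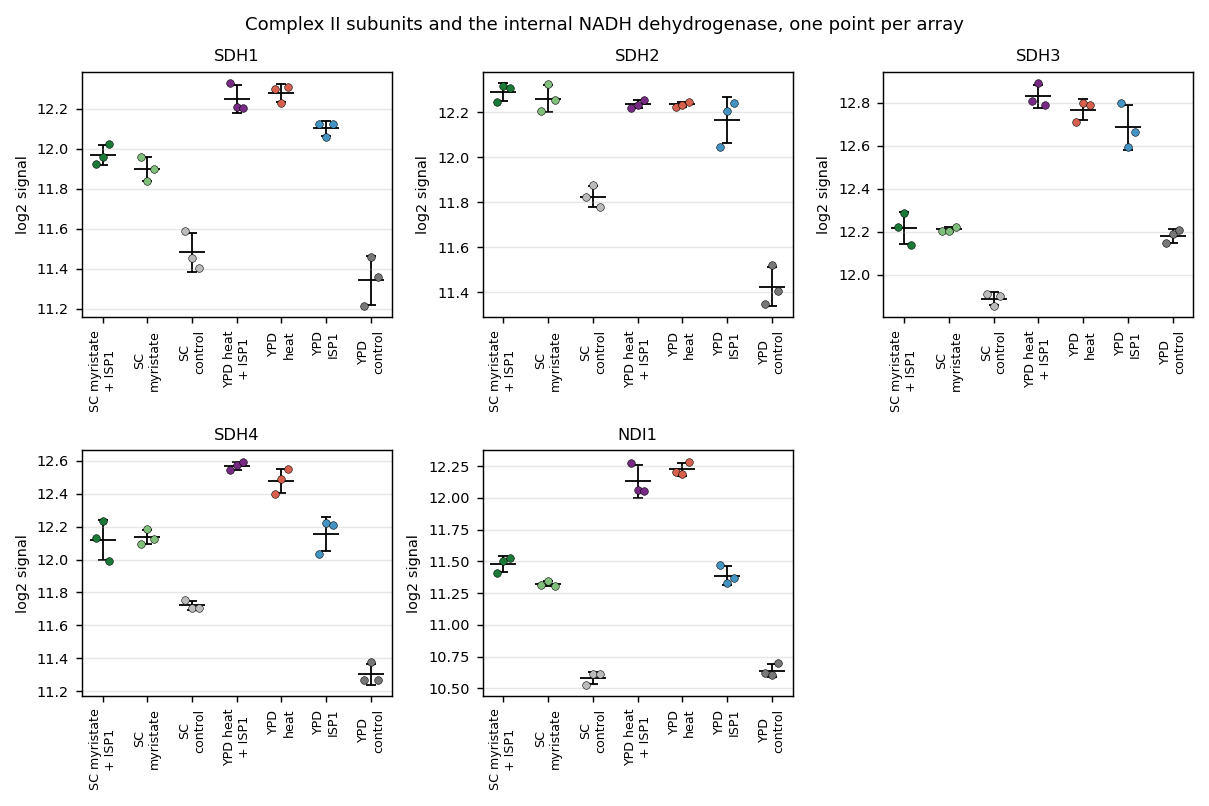
Log2 signal of the 4 complex II genes and of NDI1 by group, with a point for each array, a bar at the mean and error bars of 1 SD (n = 3). For SDH4 the YPD control arrays lie between 11.27 and 11.38, under the arrays of the other groups.

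The NADH dehydrogenases stood apart from each other. NDI1 oxidises NADH in the matrix, and NDE1 and NDE2 oxidise cytosolic NADH at the outer face of the inner membrane. NDI1 had levels of 12.28, 12.06 and 12.05 in heat with ISP1, 12.20, 12.18 and 12.29 in heat, 11.47, 11.33 and 11.37 in ISP1, and 10.62, 10.61 and 10.70 in the YPD control. Heat raised it by 1.58 ± 0.06, a fold of 3.00 (adjusted p = 3.15e-14), and ISP1 by 0.75 ± 0.06. In SC it measured 11.41, 11.50 and 11.52 in myristate with ISP1, 11.32, 11.35 and 11.31 in myristate, and 10.53, 10.61 and 10.61 in the control. Myristate raised it by 0.74 ± 0.06, and the 2 media controls differed by -0.06 ± 0.06 (adjusted p = 0.435).

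NDE2 was the dimmest of the 39 genes in the YPD control and had the widest range. It had levels of 10.44, 10.41 and 10.42 in heat with ISP1, 10.17, 9.86 and 9.97 in heat, 8.01, 7.73 and 7.81 in ISP1, and 6.71, 6.29 and 6.04 in the YPD control. No 2 of these groups overlapped. The change was 3.65 ± 0.13 in heat, a fold of 12.6 (adjusted p = 1.36e-14), and 1.50 ± 0.13 in ISP1 (adjusted p = 1.76e-08). Adding ISP1 to heat raised it by 0.43 ± 0.13 (adjusted p = 0.0178, and 0.000286 to 0.0823 over the alternative settings). In SC, NDE2 measured 10.20, 10.30 and 10.14 in myristate with ISP1, 10.24, 10.22 and 9.86 in myristate, and 8.35, 8.25 and 8.22 in the control. The myristate groups overlapped and lay above the SC control, which in turn lay above the YPD control by 1.93 ± 0.13 (adjusted p = 7.68e-10).

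NDE1 went the other way. It had levels of 12.21, 12.19 and 12.18 in heat with ISP1, 12.39, 12.39 and 12.32 in heat, 12.67, 12.84 and 12.84 in ISP1, and 12.68, 12.82 and 12.77 in the YPD control. The heated arrays lay below the unheated ones. It fell by 0.39 in heat (adjusted p = 5.45e-06) and by 0.18 in heat with ISP1 against heat (adjusted p = 0.0257, up to 0.0817 over the alternative settings), and ISP1 alone gave 0.02 ± 0.06 (adjusted p = 0.735). It fell by 0.19 in myristate (adjusted p = 0.00935). Its fall of 0.18 in the SC control against the YPD control (adjusted p = 0.0146) was about the size of the shift of all genes and did not pass after each array was centred on its median gene (adjusted p = 0.137).

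The bc1 complex moves electrons from coenzyme Q to cytochrome c. Its 9 genes all rose in heat, with a median change of 0.38 and a range of 0.25 to 0.74. Their heat arrays all lay above the control arrays (the arrays of 83.1% of all genes did not overlap). With ISP1, 7 of the 9 rose, and with myristate 3 rose, QCR2, QCR7 and RIP1. The shares of all genes that rose were 39.8% in heat, 27.9% in ISP1 and 26.6% in myristate. In myristate 33.3% of the bc1 genes were called, below the 52.3% of all genes. The larger changes in heat belonged to the small accessory subunits. QCR10 had levels of 12.33, 12.49 and 12.46 in heat with ISP1, 12.54, 12.58 and 12.61 in heat, 12.01, 12.30 and 12.61 in ISP1, and 11.73, 11.76 and 12.03 in the YPD control, a change of 0.74 ± 0.12 in heat. Its ISP1 arrays ranged widely and overlapped the control, with a change of 0.47 ± 0.12. QCR8, another small subunit, changed by 0.69 ± 0.11 in heat and 0.50 ± 0.11 in ISP1, and QCR9 by 0.66 ± 0.08 in heat and 0.29 ± 0.08 in ISP1.

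QCR7 changed by 0.49 ± 0.07 in heat and 0.29 ± 0.07 in ISP1. QCR6, the acidic subunit, was higher in ISP1, at 13.22, 13.40 and 13.23, and in heat, at 13.29, 13.18 and 13.19, than in the YPD control, at 12.75, 12.90 and 12.86. In the SC control QCR6 measured 12.35, 12.51 and 12.43, below the YPD control, and it fell by 0.40 there (adjusted p = 0.00114). The core proteins are QCR2 and COR1. QCR2 changed by 0.26 ± 0.06 in heat and 0.37 ± 0.06 in ISP1, and COR1 by 0.25 ± 0.05 in heat and 0.01 ± 0.05 in ISP1 (adjusted p = 0.916).

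CYT1 encodes cytochrome c1, the heme protein that hands electrons to cytochrome c, and separated by medium. Its levels were 11.97, 11.69 and 11.59 in heat with ISP1, 12.08, 11.85 and 11.93 in heat, 12.02, 11.67 and 11.79 in ISP1, and 11.70, 11.67 and 11.66 in the YPD control. In SC they were 12.58, 12.49 and 12.80 in myristate with ISP1, 12.57, 12.63 and 12.60 in myristate, and 12.40, 12.39 and 12.29 in the control. The SC arrays all lay above the YPD arrays, and the controls differed by 0.69 ± 0.10 (adjusted p = 1.35e-05). Heat gave 0.28 ± 0.10 (adjusted p = 0.016) and ISP1 0.15 ± 0.10 (adjusted p = 0.198).

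RIP1, the Rieske iron-sulfur protein, can be checked, since the array carries separate control probe sets for the 3′ end, the middle and the 5′ end of its transcript. In heat against control these changed by 0.27, 0.35 and 0.37 (3′, middle, 5′), beside 0.31 ± 0.06 for the probe set used here. With ISP1 added to heat they changed by -0.15, -0.24 and -0.24, beside -0.20 ± 0.06 (adjusted p = 0.0186), and their arrays did not overlap. In the SC control against the YPD control they changed by 0.15, 0.34 and 0.49, beside 0.28 ± 0.06, so that the size between media depended on the end of the transcript. In myristate they changed by 0.03, 0.03 and 0.12, less than the 0.18 ± 0.06 (adjusted p = 0.0249) of the probe set used.

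Cytochrome c, the soluble carrier between the bc1 complex and the oxidase, has the main form CYC1 and the alternative form CYC7, and these moved apart. CYC7 had levels of 13.35, 13.50 and 13.33 in heat with ISP1, 13.54, 13.38 and 13.39 in heat, 11.76, 11.86 and 12.14 in ISP1, and 9.61, 9.39 and 9.72 in the YPD control. The 2 heated groups overlapped, ISP1 lay between them and the control, and no ISP1 array reached either side. The change was 3.86 ± 0.11 in heat, a fold of 14.5 (adjusted p = 6.47e-16), and 2.34 ± 0.11 in ISP1, a fold of 5.07 (adjusted p = 3.92e-12). With ISP1 added to heat it was -0.04 ± 0.11 (adjusted p = 0.821), and the ISP1 effect in heated minus that in unheated cells was -2.38 ± 0.16 (adjusted p = 2.4e-09), the largest such difference among the 39 genes. In SC, CYC7 measured 12.43, 12.40 and 12.31 in myristate with ISP1, 12.12, 12.36 and 12.11 in myristate, and 10.54, 10.92 and 10.78 in the control, and myristate raised it by 1.45 ± 0.11 (adjusted p = 8.08e-09). The control arrays lay apart from both treated groups.

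CYC1 had levels of 13.03, 13.06 and 12.91 in heat with ISP1, 13.17, 13.29 and 13.22 in heat, 13.63, 13.76 and 13.78 in ISP1, and 13.41, 13.52 and 13.60 in the YPD control. The 4 groups did not overlap, and heat and ISP1 lay on opposite sides of the control. CYC1 fell by 0.28 in heat (adjusted p = 0.000539), rose by 0.21 ± 0.06 in ISP1 (adjusted p = 0.00741) and fell by 0.23 in heat with ISP1 against heat (adjusted p = 0.0113, up to 0.0625 over the alternative settings). In a direct comparison of heat with ISP1 alone it differed by -0.50 ± 0.06 (adjusted p = 1.3e-06). With myristate it changed by -0.12 ± 0.06 (adjusted p = 0.118).

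Cytochrome c oxidase transfers the electrons to oxygen, and its nuclear subunits surround the mitochondrially encoded core. Of the 9 genes, 5 rose in heat (COX4, COX5B, COX6, COX7 and COX13) and 4 rose in ISP1 (COX4, COX5B, COX6 and COX12). These are 55.6% and 44.4% of the oxidase genes, and 0 fell in either comparison. The shares lie below the 80.6% and 61.1% of all genes called in either direction in heat and in ISP1. They lie above the 39.8% and 27.9% of all genes that rose. With ISP1 added to heat 1 rose and 4 fell, where 16.5% of all genes rose and 16.3% fell. The arrays did not overlap for all 9, among 23 of the 39 genes and 45.4% of all genes. Subunit V exists as COX5A, the form used in air, and COX5B, the form known for low oxygen. COX5B had levels of 11.22, 11.57 and 11.36 in heat with ISP1, 11.20, 11.07 and 11.20 in heat, 10.18, 10.27 and 10.26 in ISP1, and 8.52, 8.24 and 8.32 in the YPD control. The groups rank in that order without overlap. The change was 2.80 ± 0.08 in heat, a fold of 6.94 (adjusted p = 8.54e-16), and 1.88 ± 0.08 in ISP1, a fold of 3.67 (adjusted p = 1.71e-12). The further 0.23 ± 0.08 of heat with ISP1 over heat had an adjusted p of 0.0388, which went up to 0.228 over the alternative settings. In SC, COX5B measured 10.64, 10.73 and 10.64 in myristate with ISP1, 10.56, 10.71 and 10.57 in myristate, and 9.74, 9.79 and 9.85 in the control, and myristate raised it by 0.82 ± 0.08.

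COX5A had levels of 12.50, 12.36 and 12.29 in heat with ISP1, 12.86, 12.86 and 12.86 in heat, 13.01, 13.10 and 13.14 in ISP1, and 12.88, 13.00 and 13.04 in the YPD control. Only the group given heat and ISP1 together stood well below the rest. It fell by 0.48 against heat (adjusted p = 1.5e-05), the largest fall of the 39 genes in that comparison, and the fall passed in all alternative settings. Heat alone gave -0.11 ± 0.06 (adjusted p = 0.0996, and 0.0345 without YPD control replicate 1), and ISP1 alone 0.11 ± 0.06 (adjusted p = 0.139). The ISP1 effect in heated minus that in unheated cells was -0.58 ± 0.09 (adjusted p = 4.07e-05).

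COX9 and COX4 behaved like COX5A in that their lowest YPD levels were in heat with ISP1. COX9 had levels of 11.53, 11.59 and 11.50 in heat with ISP1, 11.86, 11.87 and 11.86 in heat, 11.91, 12.04 and 12.09 in ISP1, and 11.73, 11.95 and 12.01 in the YPD control. It fell by 0.33 in heat with ISP1 against heat (adjusted p = 0.00198), while heat alone gave -0.03 ± 0.07. COX4 had levels of 12.38, 12.30 and 12.31 in heat with ISP1, 12.55, 12.63 and 12.63 in heat, 12.50, 12.62 and 12.69 in ISP1, and 12.35, 12.47 and 12.49 in the YPD control. It rose by 0.17 ± 0.06 in heat and by 0.17 ± 0.06 in ISP1 and fell by 0.28 when ISP1 was given with heat (adjusted p = 0.00116). COX6 rose by 0.55 ± 0.07 in heat and fell by 0.21 in heat with ISP1 against heat (adjusted p = 0.0207).

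In the SC control against the YPD control, 4 of the 9 oxidase genes rose (COX4, COX5B, COX6 and COX9) and 5 did not pass. Between these controls 18.9% of all genes rose and 59.8% were called in either direction. COX9 measured 12.40, 12.59 and 12.47 in the SC control, 0.59 ± 0.07 above the YPD control (adjusted p = 1.66e-06), and COX4 was 0.34 ± 0.06 above it. COX9 fell by 0.18 in myristate with an adjusted p of 0.0463, which reached 0.21 over the alternative settings. Of the remaining subunits, COX13 rose by 0.70 ± 0.06 and COX7 by 0.52 ± 0.08 in heat, and COX12 rose by 0.19 ± 0.06 in ISP1. COX8 gave -0.02 ± 0.10 in heat and 0.13 ± 0.10 in ISP1 and passed in neither.

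**Figure D4:**
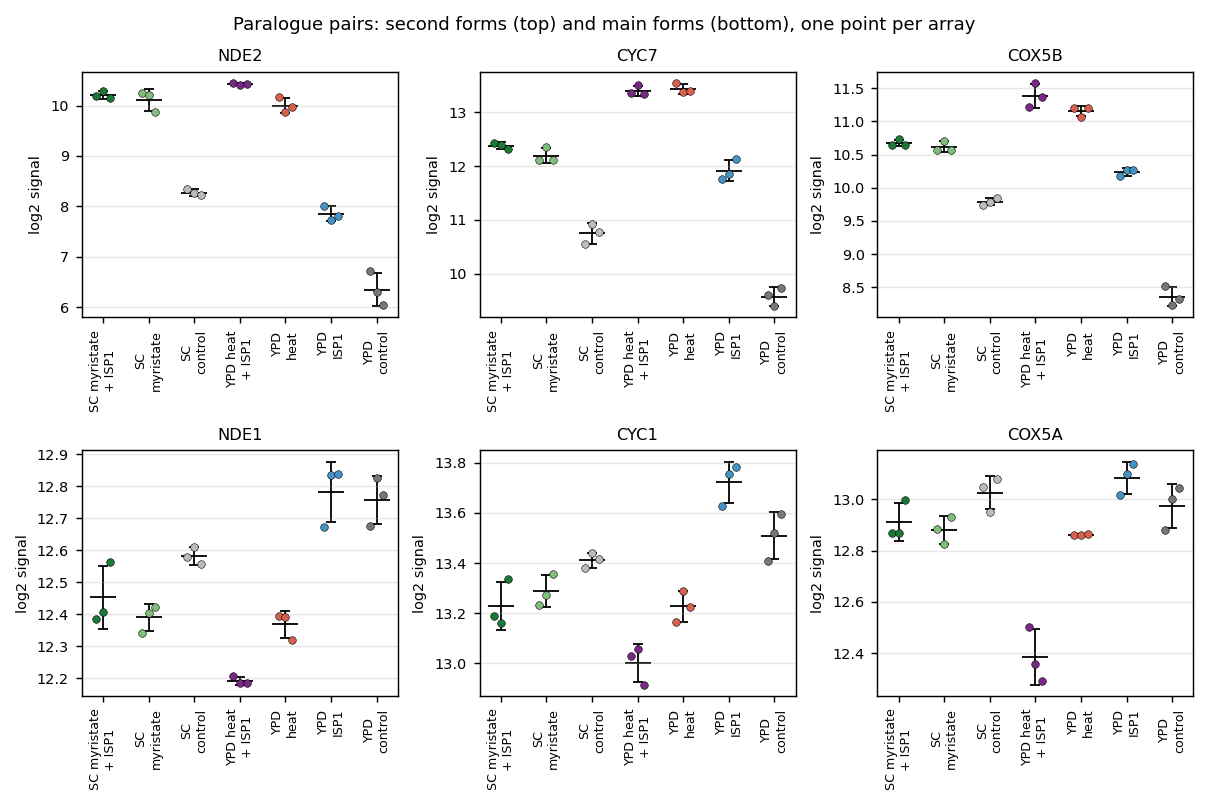
Log2 signal by group of the alternative forms NDE2, CYC7 and COX5B (top) and of the main forms NDE1, CYC1 and COX5A (bottom), with a point for each array, a bar at the mean and error bars of 1 SD (n = 3), each panel on its own scale. The top genes are lowest in the YPD control, and the bottom genes are lowest in heat with ISP1.

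The ratio of the 2 genes of a pair was also followed within each array, as a change only, since levels of different probe sets cannot be set against each other. In heat against control, NDE2 over NDE1 changed by 4.04, CYC7 over CYC1 by 4.14 and COX5B over COX5A by 2.91 on the log2 scale. In ISP1 against control the changes were 1.48 for NDE2 over NDE1, 2.13 for CYC7 over CYC1 and 1.77 for COX5B over COX5A. In myristate against the SC control they were 2.03 for NDE2 over NDE1, 1.57 for CYC7 over CYC1 and 0.97 for COX5B over COX5A. Of 24 comparisons made over the pairs, arrays did not overlap in 20. An exact two-sided permutation test of 3 arrays against 3 cannot go below p = 0.1, and after adjustment over the 24 the smallest value was 0.12, so none could pass. In myristate with ISP1 against myristate the ratio changes were 0.04 for NDE2 over NDE1, 0.25 for CYC7 over CYC1 and 0.03 for COX5B over COX5A, with overlapping arrays.

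The F1 part of the ATP synthase carries out catalysis and moved little. Its gene ATP1 was the brightest of the 39 in the YPD control. ATP1, subunit alpha, had levels of 13.94, 13.97 and 13.94 in heat with ISP1, 13.73, 13.75 and 13.79 in heat, 13.94, 13.95 and 13.99 in ISP1, and 13.84, 13.89 and 13.80 in the YPD control. Heat alone was the lowest group, at -0.09 ± 0.04 against control (adjusted p = 0.051). ATP1 rose by 0.20 ± 0.04 in heat with ISP1 against heat (adjusted p = 0.00101), where most members that passed fell. ATP2, the catalytic subunit beta, gave 0.08 ± 0.05 in heat (adjusted p = 0.163) and 0.13 ± 0.05 in ISP1 (adjusted p = 0.0418). In heat ATP3, ATP15 and ATP16, the subunits of the central stalk, rose by 0.33 ± 0.06, 0.28 ± 0.07 and 0.21 ± 0.05. In ISP1 all 5 genes rose, by 0.12 to 0.24, with overlapping arrays for ATP3 and ATP15. In myristate 0 of 5 passed. Among all genes 27.9% rose in ISP1 and 52.3% were called in myristate.

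Of the 7 genes of the peripheral stalk and membrane part, 4 rose in heat, 5 in ISP1 and 1, ATP4, in myristate. The shares called were 57.1% in heat, 71.4% in ISP1 and 14.3% in myristate, against 80.6%, 61.1% and 52.3% of all genes. All of these calls of the 7 genes were rises, and the shares of all genes that rose were 39.8%, 27.9% and 26.6%. ATP17, subunit f, had levels of 12.21, 12.13 and 12.08 in heat with ISP1, 12.41, 12.52 and 12.51 in heat, 11.94, 11.96 and 12.00 in ISP1, and 11.59, 11.84 and 11.83 in the YPD control. The 4 groups did not overlap. The change was 0.73 ± 0.06 in heat (adjusted p = 2.98e-09) and 0.21 ± 0.06 in ISP1, and ATP17 fell by 0.34 in heat with ISP1 against heat (adjusted p = 0.000372). ATP5, the subunit that joins the stalk to F1, rose by 0.16 ± 0.06 in ISP1 and gave -0.11 ± 0.06 in heat (adjusted p = 0.135). In a direct comparison ATP5 was lower in heat than in ISP1, with a difference of -0.26 ± 0.06 (adjusted p = 0.00114). ATP20, subunit g, was likewise lower in heat, with a difference of -0.40 ± 0.13 (adjusted p = 0.0119).

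ATP4, subunit b, rose by 0.32 ± 0.05 in heat, 0.12 ± 0.05 in ISP1 and 0.17 ± 0.05 in myristate. ATP7, subunit d, rose by 0.23 ± 0.06 in heat and 0.26 ± 0.06 in ISP1. ATP14, subunit h, rose by 0.16 ± 0.06 in heat and by 0.16 ± 0.06 in ISP1, with overlapping arrays in each. ATP18 passed in neither, with 0.18 ± 0.10 in heat and 0.19 ± 0.10 in ISP1.

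The direct comparison of heat with ISP1 alone gave 16 genes higher and 6 lower in heat, among 74.1% of all genes called, 37.0% higher and 37.1% lower, and the arrays of 24 genes did not overlap (76.0% of all genes). The higher ones were led by NDE2, at 2.15 ± 0.13, CYC7, at 1.52 ± 0.11, COX5B, at 0.92 ± 0.08, NDI1, at 0.84 ± 0.06, and COX13, at 0.58 ± 0.06. The lower ones were CYC1, NDE1, ATP20, ATP5, COX5A and ATP1. In heat with ISP1 against ISP1 alone, 13 rose and 10 fell, among 77.2% of all genes called, 40.0% higher and 37.2% lower, and the arrays of 23 genes did not overlap (79.4% of all genes). There NDE2 rose by 2.58 ± 0.13 and CYC7 by 1.48 ± 0.11, while CYC1 fell by 0.72, ATP20 by 0.72 and COX5A by 0.70.

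The medium separated some subunits across all treatments. Among the 39 genes, CYT1, COX4, COX9 and ATP2 were higher on each of the 9 SC arrays than on any of the 12 YPD arrays (3.67% of all genes). QCR6, ATP7 and ATP14 were lower on each SC array (7.89% of all genes), and 3 of 39 is near that share. ATP2 ranged from 13.74 to 13.90 in SC and from 13.39 to 13.58 in YPD. ATP14 ranged from 12.02 to 12.09 in SC and from 12.26 to 12.61 in YPD. Subunits of the same complex lay on opposite sides, as ATP2 and ATP14 did within the ATP synthase and CYT1 and QCR6 within the bc1 complex. The 3′ minus 5′ difference of RIP1 split the same way, with group means of 0.08 to 0.16 in SC and 0.39 to 0.50 in YPD. That of ACT1 also split, with group means of 0.32 to 0.36 in SC and 0.52 to 0.56 in YPD. So did that of SRB4, at 1.78 to 1.94 in SC and 2.86 to 3.06 in YPD, while that of SPT15 overlapped between media. The part of this quality difference in the differences of the subunit genes was not tested. The fall of ATP7 in the SC control, 0.20, had an adjusted p of 0.0105 and did not pass after median centring (adjusted p = 0.0687).

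The counts in the gene lists that follow are to be read against all genes, of which 39.8% rose and 40.9% fell in heat, 27.9% rose and 33.2% fell in ISP1, and 26.6% rose and 25.7% fell in myristate. Enzymes that feed the chain from other donors rose as well. All 4 of them rose in heat and in ISP1, with median changes of 2.09 and 1.13. CYB2, which oxidises lactate and reduces cytochrome c, had levels of 12.60, 12.42 and 12.43 in heat with ISP1, 12.56, 12.33 and 12.31 in heat, 10.91, 10.56 and 10.58 in ISP1, and 8.08, 7.66 and 7.87 in the YPD control. Its change of 4.53 in heat exceeded that of each subunit gene, and ISP1 gave 2.81. GUT2, the mitochondrial glycerol 3-phosphate dehydrogenase, rose by 2.57 in heat, 1.49 in ISP1 and 1.14 in myristate. PUT1, proline oxidase, rose by 1.61 in heat and by a further 1.58 when ISP1 was given with heat, unlike the subunit genes, none of which rose by over 0.43 there.

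A set of 3 small proteins inhibits ATP hydrolysis by the synthase or stabilises the inhibited enzyme, and all 3 rose in heat, ISP1 and myristate, with medians of 2.88, 1.93 and 0.72. STF2, a stabilising factor, had levels of 13.97, 13.94 and 14.05 in heat with ISP1, 14.08, 14.04 and 13.96 in heat, 12.91, 12.58 and 12.89 in ISP1, and 10.87, 10.83 and 10.88 in the YPD control. It rose by 3.17 in heat and 1.93 in ISP1. STF1 rose by 2.88 in heat and 1.94 in ISP1, and in myristate they rose by 0.72 for STF2 and 0.74 for STF1. INH1, the inhibitor of ATP hydrolysis, rose by 1.10 in heat and by 0.22 in ISP1 and fell by 0.21 in heat with ISP1 against heat.

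**Figure D5:**
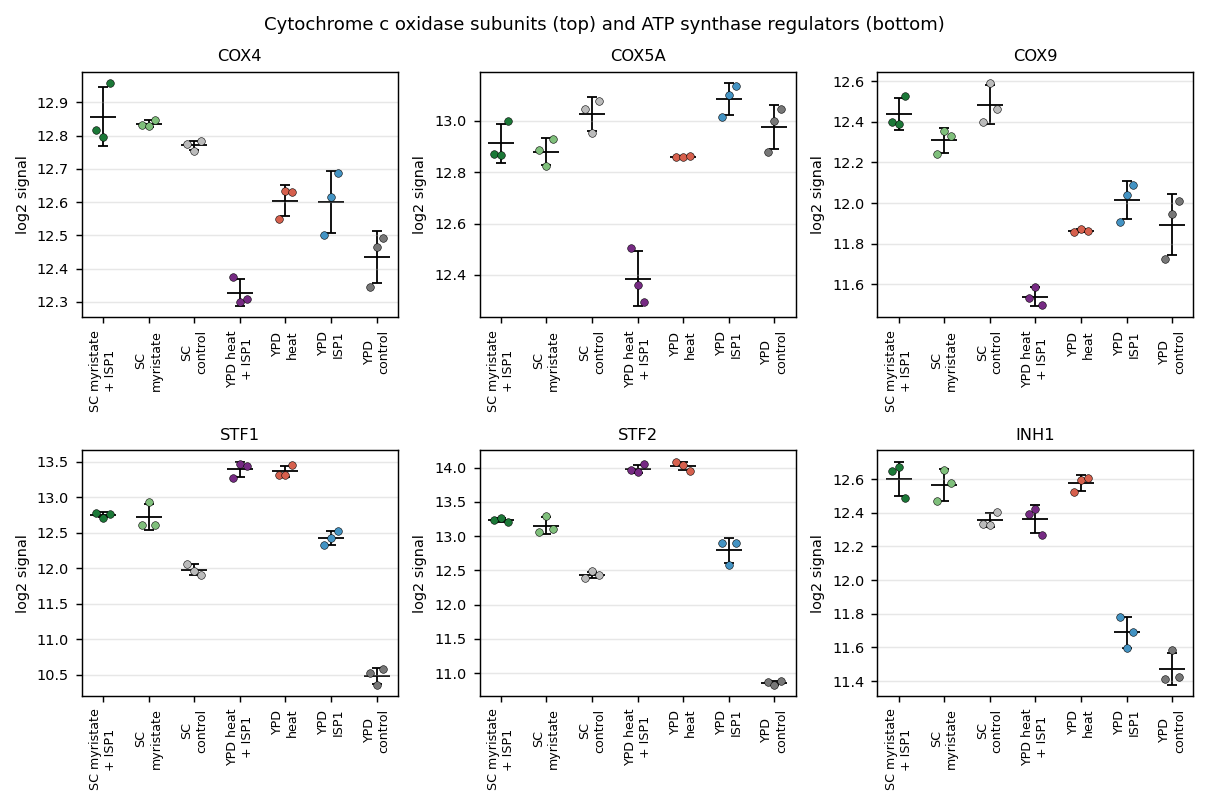
Log2 signal by group of COX4, COX5A and COX9 (top) and of STF1, STF2 and INH1 (bottom), with a point for each array, a bar at the mean and error bars of 1 SD (n = 3), each panel on its own scale. COX5A lies between 12.29 and 12.50 in heat with ISP1 and at 12.86 in heat, and STF2 lies between 13.94 and 14.08 over both heated groups.

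Assembly factors build the complexes. Of 32, 23 rose and 4 fell in heat, 21 rose and 0 fell in ISP1, and 24 rose and 0 fell in myristate, with medians of 0.35, 0.34 and 0.29. In heat 80.6% of all genes were called in either direction, so the number of factors called there is near the background. SDH6, an assembly factor of complex II, rose by 2.21 in heat, 1.82 in ISP1 and 0.99 in myristate. COX20 and PET117, both needed for the oxidase, rose by 1.47 and 1.44 in heat. With ISP1 added to heat, 7 assembly factors rose and 0 fell, where 16.5% of all genes rose and 16.3% fell. Of 10 genes of coenzyme Q synthesis, 9 rose in heat, 6 in ISP1 and 8 in myristate, with medians of 0.69, 0.32 and 0.37, and COQ4 rose by 1.62 in heat. Of 8 genes of heme synthesis, 2 rose and 5 fell in heat (39.8% and 40.9% of all genes), with a median of -0.42. HEM3 fell by 1.19, HEM13 fell by 1.02, and HEM14 rose by 1.00.

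Among 13 activators of mitochondrial mRNAs, 5 rose and 6 fell in heat, a share called near the 80.6% of all genes, with a median of 0.07. CBP1, which protects the cytochrome b mRNA, fell by 1.09, and ATP22, needed to translate the ATP6 mRNA, rose by 0.84. Of 10 transcription regulators, 5 rose and 4 fell in heat, with a median of 0.03. CAT8, an activator of genes for growth without glucose, rose by 2.41 in heat, 1.61 in ISP1 and 1.29 in myristate, and MIG1, a glucose repressor, fell by 0.87 in heat. HAP4, the activating subunit of the HAP complex of respiratory genes, fell by 0.29 in heat (adjusted p = 0.0334), with overlapping arrays. HAP1, a heme-dependent activator, rose by 0.35, and ROX1, a repressor of hypoxic genes, fell by 0.76. Of 8 hypoxic genes, a class to which COX5B is usually counted, 1 rose and 3 fell in heat, 0 rose and 3 fell in ISP1, and 0 rose and 4 fell in myristate, with medians of -0.22, -0.31 and -0.30. DAN1, which is among the 8, had group means of 3.91 to 4.13, below the background limit of 4.84, so its lack of calls says little. HEM13 is counted both here and with heme synthesis.

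Of 11 further subunits, subunit paralogues and carriers, 5 rose and 2 fell in heat, fewer than the 80.6% called of all genes would give, with a median of 0.08. SHH3, a paralogue of SDH3, had levels of 9.66, 9.43 and 9.55 in heat with ISP1, 9.65, 9.83 and 9.98 in heat, 6.17, 6.09 and 5.76 in ISP1, and 5.81, 5.78 and 5.15 in the YPD control. It rose by 4.24 in heat and by 1.95 in myristate, and ISP1 gave 0.42 (adjusted p = 0.0667). The heated groups lay above all unheated YPD arrays, and the ISP1 arrays overlapped the control. SHH4, a paralogue of SDH4, rose by 1.42 in heat, 1.01 in ISP1 and 1.50 in myristate.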

How the data were processed

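Total RNA, extracted with phenol and biotin-labelled, was hybridised to Affymetrix arrays, per the labels' protocols. The authors deposited log2 signals per probe set, made with affy and RMA per the submitters' processing notes, whose text names no version. RMA as usually run evens out the arrays' distributions, which can hide a shift of most genes. The deposited arrays still differed, with medians over all probe sets of 6.16 to 7.07. Of 10928 probe sets, 5498 carried 1 S. cerevisiae gene, and 5449 genes remained with the brightest probe set of each. Background was the 95th percentile of 1746 probe sets of another species.

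Groups and replicate numbers follow the sample titles. Comparisons were contrasts among group means, fitted in limma 3.58.1 (R 4.3.3) on all 21 arrays at once, with Benjamini-Hochberg adjustment over 5449 genes and a threshold of 0.05. Values after ± are standard errors unless called SD. The members and gene lists were chosen with earlier results of these data known. Named per comparison were up to 5 called members with the largest rise and 5 with the largest fall, the paralogue pairs, up to 3 called genes per list, and HAP4, HAP1 and ROX1; further members were named by role after their values were seen. On simulated data with 200 of 5449 genes changed, the fit found 96.5% to 99.5% of changes of size 1. For changes of 0.5 it found 81.5% to 90% between groups and 57.5% to 61.5% between effects. Of the genes it called, 2.46% to 10% had not been changed. The simulation drew arrays without pairing, changed fewer genes than were called in most comparisons here, and held no change below 0.5. Its rates therefore need not hold for these data or for smaller changes.

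Same-numbered arrays were taken as pairs where each correlation of their deviations passed 0.1. In YPD this was met by ISP1 and control (0.230 to 0.530), both heated groups (0.172 to 0.433) and both ISP1 groups (0.132 to 0.350), and in SC by myristate and control (0.322 to 0.626). Alternatives were a replicate block, fits of only the arrays compared, quantile normalisation or median centring over yeast genes, dim genes left out, a trended robust prior, array weights, averaged probe sets, and each array left out in turn.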

Additional observations from a re-analysis of the deposited data

Results flagged for a closer look

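In 13 results of members named per comparison, the effect of ISP1 differed between conditions by a test of the difference itself in limma. The naming rule is given under the processing, and members outside it passed the same test. Of all members, 29 passed in heated against unheated cells and 15 with myristate in SC against YPD. SDH4 (-0.76) and SDH2 (-0.74) passed in heated against unheated cells but were not named there. In heated against unheated cells the difference, on the log2 scale, was -2.38 for CYC7, -1.65 for COX5B, -1.08 for NDE2, -0.84 for NDI1, -0.79 for SDH1, -0.58 for COX5A and -0.44 for CYC1. For CYC7, NDI1 and SDH1 it came with an ISP1 change near 0 in heat, whereas for COX5A and CYC1 ISP1 lowered the level in heat. NDE2 and COX5B were the only members among the 7 named whose change by ISP1 in heat was above 0.

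With myristate in SC against YPD the difference was -2.15 for CYC7, -1.82 for COX5B, -1.40 for NDE2, -0.87 for SDH4, -0.71 for SDH2 and -0.27 for CYC1. Medium and myristate cannot be told apart in it, and no treatment time is given for myristate with ISP1.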

How the results depend on the processing

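The counts of members called stayed within 1.5 times the reported count except as follows. In heat with ISP1 against heat (13), leaving out an array gave 6 to 13, array weights gave 22, and the replicate block in a fit of only the arrays compared, chosen after seeing the data, gave 8. The planned block over all arrays gave 16. In ISP1 against control (29), leaving out an array gave 19 to 30. For ISP1 in myristate minus ISP1 in YPD (15), array weights gave 27 and leaving out an array gave 11 to 21, and the median change (-0.19) lay between -0.27 and -0.14. The median change in heat with ISP1 against ISP1 (0.05) lay between -0.0163 and 0.10 and was below 0 without ISP1 replicate 1. What causes these moves was not tested. The block changed no other count by over 1.5 times. For named members, 1383 values under other settings kept direction and side of the threshold, 31 lost the call, 17 gained it and 0 reversed. In myristate with ISP1 against myristate 0 members were called in any setting, while the count of all genes reached 43 with array weights. Dim signal limits little here, since the lowest single value of a member was 6.05 and the background limit 4.84.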
